A study of Rattus norvegicus with 2 samples.

Results

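Signalling genes of the Wnt, BMP and TGF-beta pathways were described in a transcript annotation assembled from rat femur RNA. Members were taken by gene name alone, after the endings that mark predicted or mapped genes were removed and case was ignored. The names covered were the families Wnt, Fzd, Sfrp, Dkk, Dvl, Axin, Bmp, Tgfb, Smad, Acvr, Gdf, Inhb, Smurf and Ltbp, every name that begins with Tcf7, and the single genes Lrp4, Lrp5, Lrp6, Ctnnb1, Lef1, Fst and Nog. Of 12567 gene names in the annotation, 54 matched, with 174 transcripts in all. Total RNA had been taken from the femurs of female WT Wistar rats after bilateral ovariectomy (OVX) or after a sham operation (SHAM), in which the ovaries stay in place. The labels used here list 1 OVX sample and 1 SHAM sample, both at 16 weeks, and also carry the words Old for OVX and Young for SHAM, while the study's methods give another feeding time and more sequenced rats per group. The annotation describes the whole series by 43391 transcripts at 16678 loci and gives no read count, expression value or coverage, so depth is unknown, no level can be compared between genes and OVX was not compared with SHAM.

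Each transcript was recorded as present in 1 or in both of 2 assemblies, called here the first and the second by the order of their numbering. Which rats or which group entered either assembly is not given in the sources used here, so a difference between the assemblies cannot be told apart from one between rats, libraries or read depths. Likewise, fewer cells of a type and less RNA per cell cannot be told apart where a gene had short models or none. The build of the positions is uncertain. The labels name rn4 and Wistar rats, whereas the annotation is titled SD and its sequences carry accessions that look like those of another rat assembly. Positions are given as in the annotation and were not checked against a genome, and its 21 sequences were assigned to chromosomes by the genes on them. The members lay on 19 chromosomes. All 54 fell on the chromosome of their current symbol, which follows largely from that assignment and does not check the build or the positions.

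Wnt proteins bind Frizzled receptors together with the co-receptors Lrp5 or Lrp6, which stabilises beta-catenin so that it acts with Tcf and Lef factors on target genes, and in bone this promotes the formation and activity of osteoblasts. Secreted inhibitors such as Dkk1, the Sfrp proteins and sclerostin restrain that signal. BMP and TGF-beta ligands signal through pairs of receptor kinases that phosphorylate Smad proteins, which join Smad4 and enter the nucleus, while extracellular binding proteins hold the ligands back or store them in the bone matrix.

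The current rat annotation holds 112 protein-coding genes that the name rule takes, and 54 of them (48.2%) had a transcript under their symbol in femur. Over all protein-coding symbols other than numbered placeholders, 5334 of 20950 (25.5%) were found. A gene that was not found by name was not shown to be silent, because 4469 of the gene names (35.6%) are placeholders that begin with rCG_ and could stand for genes of these families. Few genes were found in some ligand families, with 3 of 19 Wnt genes, 1 of 10 Gdf genes and 0 of 4 Inhb genes. Larger shares were found of several receptor and transducer families, with 6 of 8 Smad genes, 5 of 6 Acvr genes, 3 of 3 Tgfbr genes, 2 of 3 Dvl genes and 2 of 2 Axin genes. Fzd receptors stood lower, at 3 of 10, and the inhibitor families differed, with 3 of 4 Sfrp genes and 1 of 4 Dkk genes. Of the Bmpr receptors 2 of 3 were found, and of the Ltbp genes 2 of 4. Among the ligand families only Tgfb was found complete, with Tgfb1, Tgfb2 and Tgfb3, and 7 of the 11 genes named as Bmp ligands were found.

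**Figure D1:**
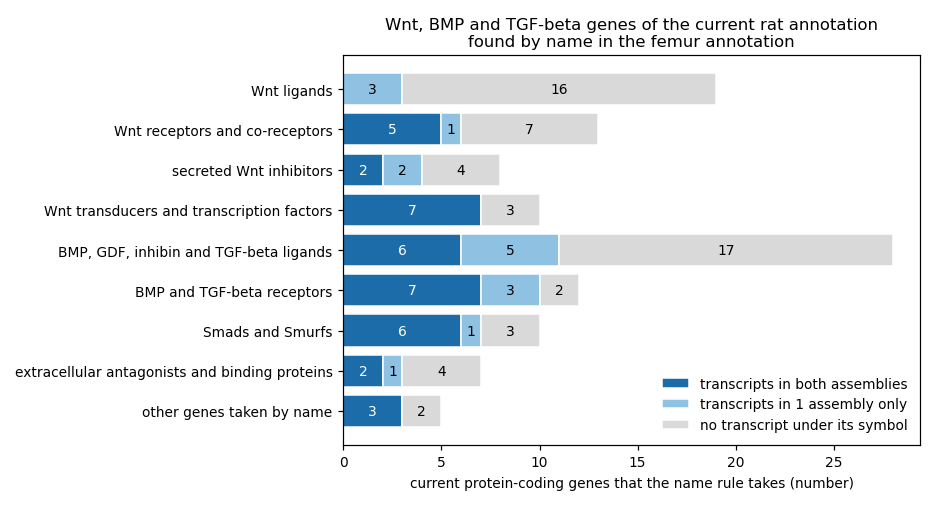
Current protein-coding genes that the name rule takes, by role (number of genes, horizontal axis), divided into those with transcripts in both assemblies, in 1 assembly only, and without a transcript under their symbol. All 7 Wnt transducers and 0 of the 3 Wnt ligands that were found lay in both assemblies, where 76.5% of all named genes did.

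Of the 54 members, 38 (70.4%) had transcripts in both assemblies, against 76.5% of all named genes. A further 11 members were in the first assembly only and 5 in the second only, against 1673 and 1278 of the 12567 gene names. Without contained fragments, models that lie within a reference transcript, 20 members (37.0%) were in both assemblies. That filter can only lower the share, and it was not applied to all named genes, so the fall was not set against theirs. An identical transcript in both assemblies was rarer, with 11 members (20.4%) against 30.8% of all named genes. Every member carries a current symbol, and over the 5339 names that equal one these shares were 81.8% and 30.5%. The members' shares were below those of both sets in both measures, which is given as a description without a test. Exact 95% binomial intervals of the members' shares, which treat genes as independent, were 56.4% to 82.0% and 10.6% to 33.5%. Each interval includes the shares of both sets, so no trait of the members is drawn from these values.

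A full reference chain, a transcript with every intron of a reference transcript, was present for 18 members (33.3%) against 38.6% of all named genes. Fzd1 and Fzd9 count here by their class alone, since their single-exon models have no intron. With 2 or more exons only, 16 members (29.6%) had a full chain. For 6 members (11.1%) an identical full-chain transcript was recorded in both assemblies, against 20.1% of all named genes. These were Fzd1, Fzd4, Ctnnb1, Bmp1, Tgfb1 and Tgfb1i1. The other 12 were divided evenly, with 6 in the first assembly (Fzd9, Sfrp1, Tcf7, Dvl3, Gdf15 and Smad3) and 6 in the second (Sfrp2, Sfrp4, Dkk1, Bmp3, Tgfb3 and Smad4). A transcript that the authors' files place in the class for a new junction was present for 20 members (37.0%) against 42.3% of all named genes. Of the 42 such transcripts, 1, of Bmp1, was in both assemblies, against 569 of 9873 over all named genes. The class is not a count of new junctions, since Sfrp4, Axin2 and Smad3 had a model of this class but 0 junctions that only such models carried. Such junctions could also lie in both assemblies where no whole model did. In Lrp5 6 of 8 were in both, and in Acvrl1 0 of 6.

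Members had a median of 2 transcripts, with a range of 1 to 11, against 2 over all named genes and 3 over names that equal a current symbol, and 35 of the 54 had more than 1. The median over members of the longest transcript's exon length was 1448 bp, compared with 1000 bp over all named genes and 1173 bp over names that equal a current symbol. Counted by class, 105 of the 174 transcripts (60.3%) were contained fragments, against 56.1% over all named genes. Full chains made up 21 (12.1%) and new-junction models 42 (24.1%), against 15.4% and 25.6% over all named genes. Contained fragments were thus the main class both for these genes and for the whole annotation.

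**Figure D2:**
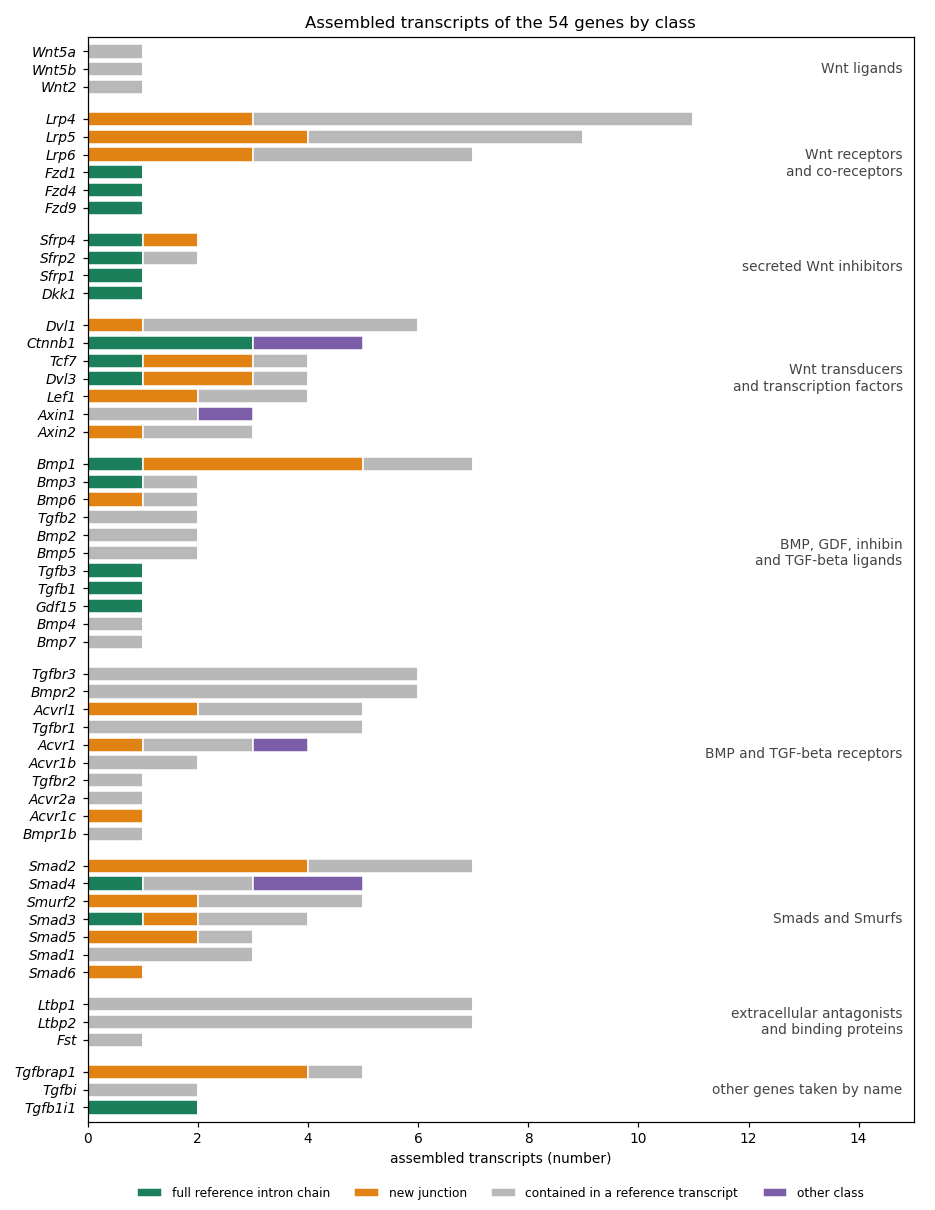
Number of assembled transcripts of each of the 54 genes (horizontal axis), by role and by class of the transcript. Lrp4 had the most, 11, of which 8 were contained and 3 of the class for a new junction, and none of the 10 receptors for BMP and TGF-beta had a full chain, where 38.6% of all named genes had one.

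Splice junctions were counted apart from whole models. The members had 416 distinct junctions, of which 218 (52.4%) were in both assemblies, against 53.7% over all named genes. Within the 38 members found in both, the share was 218 of 384 (56.8%), and 15 of their 157 transcripts (9.55%) were identical. These 38 were taken because they lay in both assemblies, and no such subset was taken of all named genes. Over all 54 members 8.62% of transcripts were identical in both assemblies, and over all named genes 12.2%. An identical transcript needs all of its junctions in both assemblies, a stricter condition than that for a single junction. How much of the lower share of transcripts follows from this was not tested. Of the exon sequence, 51.0% of 124770 bp was covered in both assemblies, against 55.2% over all named genes.

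**Figure D3:**
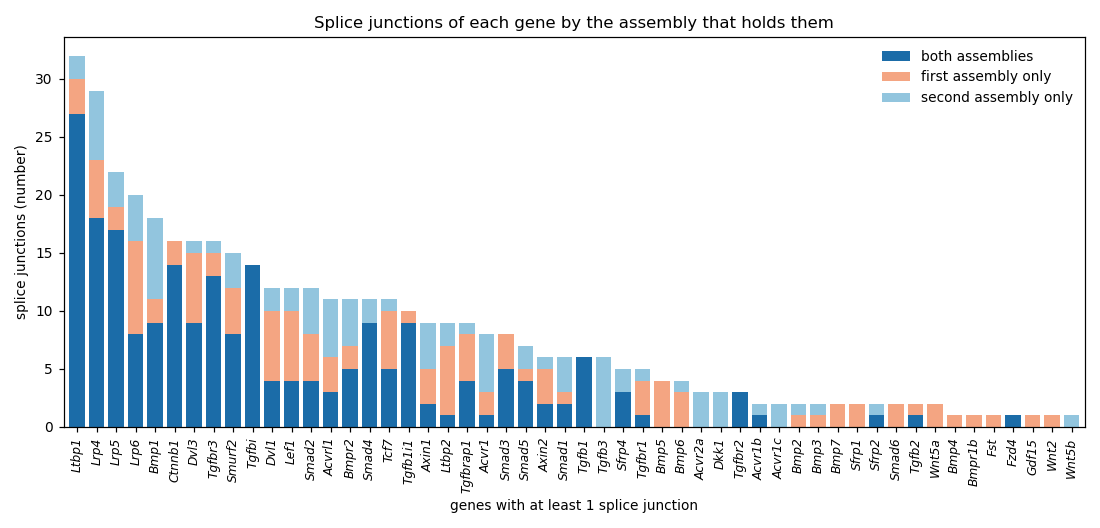
Splice junctions of each gene (number, vertical axis), divided into those in both assemblies, in the first only and in the second only, with genes ordered by their total. Ltbp1 led with 32 junctions, 27 of them in both assemblies, while Ltbp2 had 1 of 9 in both.

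The Wnt ligands were the most thinly assembled role. Wnt5a, a ligand mainly of beta-catenin-independent signalling, had in the first assembly 1 contained model with 3 exons and 645 bp (chromosome 16, 3644455 to 3651999, plus strand). Its close relative Wnt5b had 1 with 2 exons and 386 bp in the second (chromosome 4, 141471188 to 141477175, minus strand). Wnt2 had 1 with 2 exons and 254 bp in the first. No Wnt ligand was in both assemblies or had a full chain, and the other 16 Wnt genes, among them Wnt1, Wnt3a, Wnt4, Wnt10b and Wnt16, had no transcript under their symbol.

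Of the Wnt receptors, the Frizzled genes that were found each had 1 model of the full-chain class, and the larger co-receptors were assembled in pieces. Fzd1 (chromosome 4, 24742542 to 24747209, plus strand), a gene of a single exon here, had 1 transcript of 4668 bp, the longest of any member. It was recorded as identical in both assemblies and is of the full-chain class, although it has no intron to compare. Fzd4 (chromosome 1, 141540783 to 141546500, plus strand) had 1 transcript of 2 exons and 3661 bp, also identical in both. Fzd9 had a single-exon transcript of 2336 bp in the first assembly alone. Fzd2, Fzd3, Fzd5, Fzd6, Fzd7, Fzd8 and Fzd10 had none under their symbol.

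Within this role the co-receptors Lrp4, Lrp5 and Lrp6 had the most transcripts. Lrp4, which binds sclerostin and helps it to inhibit Wnt signalling in bone, had 11 transcripts (chromosome 3, 76647269 to 76677450, plus strand). The longest had 11 exons and 1567 bp, and 18 of its 29 junctions were in both assemblies. Lrp5, a co-receptor whose mutations change bone mass, had 9 transcripts (chromosome 1, 198369891 to 198445164, minus strand), 4 in the first assembly and 5 in the second. Its longest model had 13 exons and 2829 bp, and 17 of 22 junctions and 79.4% of its exon sequence were in both assemblies. Lrp6, the close relative of Lrp5, had 7 transcripts with 8 of 20 junctions and 40.2% of the exon sequence in both (chromosome 4, 155870861 to 155972663, minus strand). No model of these 3 genes had a full reference chain, yet the junctions of Lrp5 were largely the same in both assemblies.

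The 4 secreted Wnt inhibitors of the Sfrp and Dkk families that were found had a full chain, each in 1 assembly. Sfrp4, a decoy that binds Wnt proteins, had a full-chain transcript of 6 exons and 2154 bp in the second assembly and a 4-exon model of 750 bp in the first, with 3 of 5 junctions in both (chromosome 17, 51198269 to 51208589, plus strand). Sfrp2 likewise had a full chain of 3 exons and 2010 bp in the second and a fragment of 202 bp in the first (chromosome 2, 163105859 to 163113441, plus strand). Sfrp1 had 1 transcript, a full chain with 3 exons and 2500 bp from the first assembly (chromosome 16, 66469341 to 66506067, minus strand). Dkk1, which binds Lrp5 and Lrp6 and blocks the Wnt receptor complex, had 1 transcript, a full chain of 4 exons and 2295 bp in the second assembly (chromosome 1, 225519220 to 225522904, minus strand). Each of these 4 genes thus reached a full chain, and none had an identical model in both assemblies. Dkk2, Dkk3, Dkk4 and Sfrp5 had no transcript under their symbol.

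Promoter sequence of a Wnt receptor and a Wnt inhibitor with a full chain is shown as background on these genes, and the first bases of their assembled models were not set against these annotated starts. RefSeq sequence of the build GRCr8 was matched by symbol for 39 of the 54 members (72.2%), too few for a comparison over the list. Each run below is the 250 bases before the annotated start, 5′ to 3′ on the gene's strand. Capitals mark TATAAA, the core of a TATA box, and GGGCGG, the core of a GC box, searched on both strands with overlapping matches allowed.
Dkk1: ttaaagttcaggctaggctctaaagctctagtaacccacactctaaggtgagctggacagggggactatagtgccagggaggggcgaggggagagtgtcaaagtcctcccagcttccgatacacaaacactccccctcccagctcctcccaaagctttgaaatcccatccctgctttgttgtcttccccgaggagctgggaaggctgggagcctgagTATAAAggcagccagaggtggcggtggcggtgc
Fzd4: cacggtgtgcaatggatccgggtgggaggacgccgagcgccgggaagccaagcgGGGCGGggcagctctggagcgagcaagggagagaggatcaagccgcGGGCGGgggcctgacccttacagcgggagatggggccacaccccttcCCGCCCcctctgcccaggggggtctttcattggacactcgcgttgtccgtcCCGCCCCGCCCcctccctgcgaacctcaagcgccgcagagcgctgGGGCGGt
The Dkk1 window (chr1:237798651-237798900, minus strand) had 1 TATAAA, whose first base lies 33 bases before the start, and 0 GGGCGG. The Fzd4 window (chr1:152692257-152692506, plus strand) had 6 GGGCGG over both strands, of which a pair overlap, and 0 TATAAA. Among 33469 windows of this length over all genes, 12.9% held TATAAA and 30.5% held GGGCGG. The matches describe the letters of these windows, and no binding was measured.

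All 7 Wnt transducers and transcription factors that were found lay in both assemblies, beside 81.8% of the names that equal a current symbol. Ctnnb1, which encodes beta-catenin, had more full-chain transcripts than any other member (chromosome 8, 119779202 to 119806341, plus strand). There were 3, of 15 exons and 3574 bp, 14 exons and 3519 bp, and 10 exons and 2358 bp, and all 3 were identical in both assemblies. The first assembly held a further pair of models with 16 exons, of 3113 and 3116 bp. Both carried the 14 introns of the longest full chain and 1 more within its last exon, from 119805338 to 119805748 in the shorter intron and to 119805751 in the longer. That extra intron was thus seen in the first assembly only.

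Dvl1, a Dishevelled protein that relays the signal from Frizzled, had 6 transcripts of at most 590 bp, with 4 of 12 junctions in both assemblies (chromosome 5, 164657763 to 164668376, plus strand). In the first assembly Dvl3 had a full chain of 15 exons and 2455 bp, and 9 of 16 junctions were in both. Tcf7, a transcription factor that partners beta-catenin, had a full chain with 11 exons and 3023 bp from the first assembly, and 5 of 11 junctions were in both. Its relative Lef1 had 4 transcripts of at most 711 bp. Axin1 and Axin2, scaffolds of the complex that degrades beta-catenin, had 3 transcripts each, with 2 of 9 and 2 of 6 junctions in both assemblies. So within this role a full chain was present for Ctnnb1, Tcf7 and Dvl3 and for none of the other 4. Dvl2, Tcf7l1 and Tcf7l2 had no transcript under their symbol.

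Among the BMP, GDF, inhibin and TGF-beta ligands, Tgfb1 and, of those taken by name, Bmp1 had a full chain in both assemblies. Tgfb1, which is stored in bone matrix, had 1 full-chain transcript of 7 exons and 2182 bp, identical in both assemblies (chromosome 1, 75635275 to 75652314, plus strand). Tgfb3 had 1 full chain of 7 exons and 3424 bp in the second assembly only. Tgfb2 had a contained model of 2 exons and 766 bp in both and a fragment of 220 bp in the first. The 3 TGF-beta ligands thus ranged from a full chain in both assemblies to fragments.

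The BMP ligands were assembled mainly as fragments. Bmp2, an inducer of osteoblast differentiation, had 2 contained models of 2 exons each (chromosome 3, 119596712 to 119605019, plus strand). The one in the first assembly measured 599 bp and ended 3 bases short of the one in the second, of 589 bp. The pair therefore shared no base and no junction. Bmp6, with models of 1198 and 265 bp, likewise shared none. Bmp3, a BMP that can antagonise other BMPs, had a full chain of 2 exons and 2780 bp in the second assembly and a fragment of 921 bp in the first, with 0 of 2 junctions in both (chromosome 14, 10801499 to 10825923, minus strand).

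Bmp4, Bmp5 and Bmp7 were in the first assembly only. Bmp7, an osteogenic ligand, had 1 contained model of 3 exons and 268 bp (chromosome 3, 160838540 to 160844679, minus strand), and Bmp4 had 1 of 2 exons and 1006 bp. Bmp5 had 2 fragments of 287 and 305 bp. Gdf15, a stress-induced member of the family, had a full chain with 2 exons and 1558 bp from the first assembly and was the only Gdf gene found. Bmp8a, Bmp8b, Bmp10 and Bmp15 had no transcript under their symbol.

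Bmp1 stands here by its name, although it encodes a metalloprotease that processes procollagen and not a BMP ligand. It had 7 transcripts (chromosome 15, 45230916 to 45274179, minus strand), with 9 of 18 junctions in both assemblies. A full chain of 2 exons and 585 bp and a new-junction model of 5 exons and 677 bp were each identical in both. Its full chain was much shorter than its longest model, of 10 exons and 1338 bp in the second assembly, so a full chain of a short reference transcript did not mean a complete gene.

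**Figure D4:**
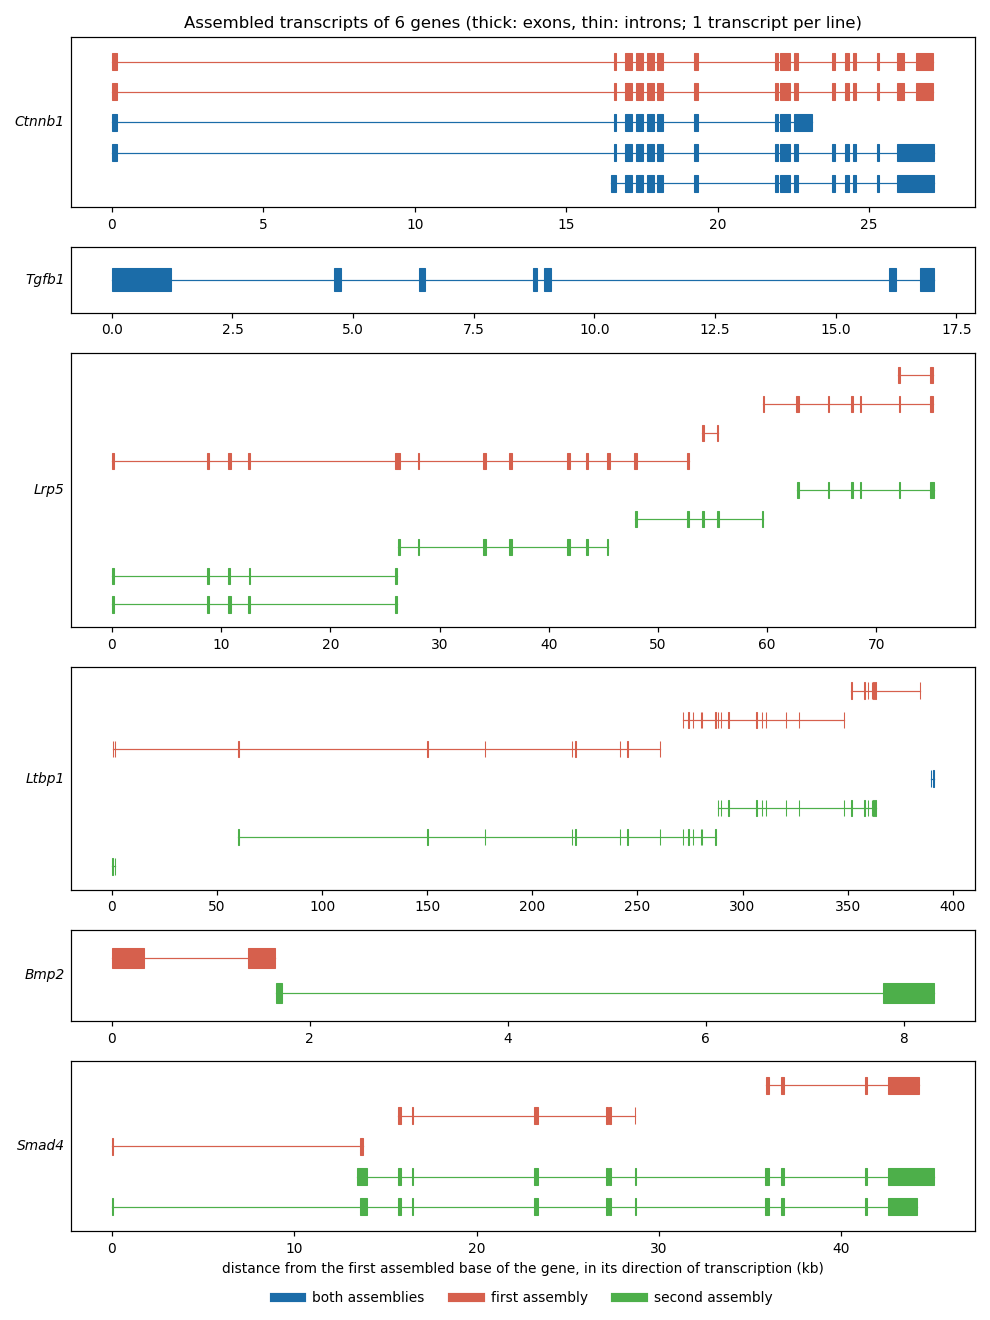
Assembled transcripts of Ctnnb1, Tgfb1, Lrp5, Ltbp1, Bmp2 and Smad4, 1 per line, against the distance from the first assembled base in the direction of transcription (kb, a different scale for each gene). Colours give the assembly, and boxes are exons drawn with a minimum line width. A model of both assemblies is drawn with the ends of 1 model. The maps show the full chain of Tgfb1 in both assemblies beside the separate pieces of Bmp2.

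None of the 10 receptors for BMP and TGF-beta had a full chain, which 38.6% of all named genes had. Tgfbr3, the co-receptor betaglycan, had 6 contained transcripts, the longest of 7 exons and 2166 bp (chromosome 14, 2505799 to 2679724, plus strand), and 13 of its 16 junctions were in both assemblies. Bmpr2, the type II receptor for BMPs, also had 6 contained transcripts, the longest of 5 exons and 1212 bp, with 5 of 11 junctions in both (chromosome 9, 58626998 to 58735068, plus strand). Tgfbr2, the type II receptor for TGF-beta, had the longest model of the role, with 1 contained model of 4 exons and 3913 bp identical in both.

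Tgfbr1, its type I partner, had 5 contained fragments of at most 475 bp, with 1 of 5 junctions in both assemblies. Acvrl1, a type I receptor of endothelial cells, had 5 transcripts of at most 952 bp with 3 of 11 junctions in both. Acvr1 had 4 transcripts with 1 of 8 in both, and Acvr1b had a contained model of 894 bp in the second assembly and a fragment of 280 bp that was identical in both. Acvr2a and Acvr1c were in the second assembly only and Bmpr1b in the first only, with a single model of 334, 315 and 233 bp. Of the 12 genes of this role 10 were thus found, with a median longest transcript of 786 bp and a range from 233 bp for Bmpr1b to 3913 bp for Tgfbr2. Bmpr1a and Acvr2b had no transcript under their symbol.

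**Figure D5:**
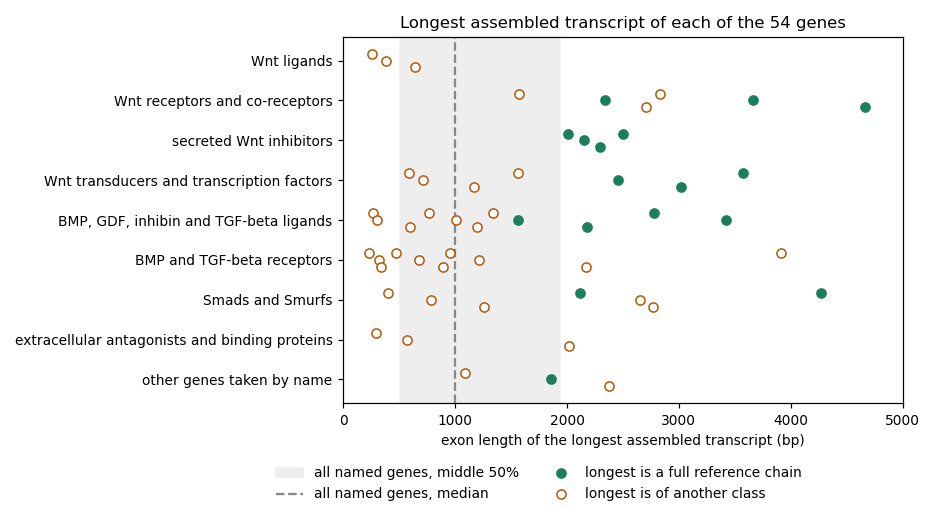
Exon length (bp) of the longest assembled transcript of each gene by role, with the median and the middle 50% of all named genes. The 4 secreted Wnt inhibitors of the Sfrp and Dkk families lay between 2010 and 2500 bp, and the 3 Wnt ligands between 254 and 645 bp.

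Smad4, the shared partner of the receptor-regulated Smads, had 5 transcripts (chromosome 18, 65245021 to 65290097, minus strand). A full chain of 11 exons and 4271 bp was in the second assembly, and 9 of 11 junctions were in both. A second model of 12 exons and 3234 bp in that assembly carried all 10 introns of the full chain and 1 more of 13542 bp, from 65276481 to 65290022, which led to a first exon upstream of the full chain. In the first assembly a model of 2 exons and 235 bp carried the same intron. The junction to this upstream exon was thus in both assemblies. A count made after the values were seen took only models compared with the same reference transcript as a full chain of their gene. It gave 5 junctions outside that chain, in Smad4, Ctnnb1 and Dvl3, and of these 5 the one of Smad4 was in both assemblies.

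Smad2 and Smad3 are the Smads that TGF-beta receptors phosphorylate. Smad2 had 7 transcripts, the longest of 5 exons and 783 bp, with 4 of 12 junctions in both assemblies (chromosome 18, 68381837 to 68442845, plus strand). Smad3 had a full chain with 9 exons and 2114 bp from the first assembly, and 5 of 8 junctions were in both. Smad1 and Smad5, which BMP receptors phosphorylate, had 3 transcripts each, with 2 of 6 and 4 of 7 junctions in both. Smad6, an inhibitory Smad, had 1 model of 403 bp in the first assembly only. Smurf2, a ubiquitin ligase that acts on Smads and their receptors, had 5 transcripts with 8 of 15 junctions in both. Full chains in this role were those of Smad3 and Smad4. Smad7, Smad9 and Smurf1 had none under their current symbol, though Smad7 was found under an older one.

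Of the extracellular antagonists, Fst had 1 contained model with 2 exons and 292 bp from the first assembly (chromosome 2, 41887219 to 41888013, minus strand); it encodes follistatin, which binds activins. Nog, which encodes the BMP antagonist noggin, had no transcript under its symbol, and neither had Bmper, Ltbp3 or Ltbp4. Ltbp1 and Ltbp2 encode matrix proteins, and the first of them tethers latent TGF-beta. Ltbp1 had 7 contained transcripts, the longest of 14 exons and 2022 bp, and 84.6% of its exon sequence was in both assemblies (chromosome 6, 19597170 to 19988260, minus strand). Ltbp2 also had 7, the longest of 3 exons and 573 bp, with 18.9% in both (chromosome 6, 102255618 to 102349648, minus strand). The same number of fragments thus stood for a large overlap of the assemblies in Ltbp1 and for a small one in Ltbp2.

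Another 3 genes were taken by their names without being a ligand, receptor or Smad. Tgfbi, a matrix protein induced by TGF-beta, had 2 contained models of 14 exons and 2372 bp and of 2 exons and 286 bp, and all 14 of its junctions were in both assemblies (chromosome 17, 8049686 to 8078913, minus strand). Tgfbrap1, a receptor-associated protein of vesicle transport, had 5 transcripts with 4 of 9 junctions in both (chromosome 9, 43045124 to 43083035, minus strand). Tgfb1i1, the focal adhesion adaptor Hic-5, had full chains of 10 exons and 1853 bp in both assemblies and of 11 exons and 1729 bp in the first. Of the 33 junctions of these 3 genes, 27 (81.8%) were in both assemblies, 14 of them from Tgfbi, where the share over all named genes was 53.7%.

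In 4 places a pair of members were direct neighbours among the named genes, on the same strand. Smad3 and Smad6 lay 211 kb apart on chromosome 8, Acvr1c and Acvr1 87.1 kb apart on chromosome 3, Smad5 and Tgfbi 63.6 kb apart on chromosome 17, and Acvrl1 and Acvr1b 53.1 kb apart on chromosome 7. In the pairs on chromosomes 8 and 3 the neighbours differed, since Smad6 and Acvr1c were in 1 assembly only while Smad3 and Acvr1 were in both.

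Other genes of these pathways were counted from 2 lists, to be read beside the 25.5% of symbols found in all and, of all named genes, the 76.5% in both assemblies and the 38.6% with a full chain. Of 45 further Wnt genes, 24 were found, 17 of them in both assemblies and 6 with a full chain. An identical full chain in both was recorded for Sost, which encodes sclerostin (2 exons, 2047 bp), and for the kinases Gsk3b (11 exons, 1560 bp) and Csnk1a1 of the beta-catenin degradation complex. Of 45 further BMP and TGF-beta genes, 20 were found, 17 in both assemblies and 9 with a full chain. Here the identical full chains were those of Id1, a transcriptional target of BMP signalling, Fstl1 and the BMP antagonist Nbl1. These 6 genes are named because their values had been seen. Sost of the Wnt list, and Runx2 and Sp7 of the BMP and TGF-beta list, are on the list of osteoblast and osteocyte markers as well.

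Markers of the tissue were checked in the same annotation. Of 13 osteoblast and osteocyte markers, 11 were found, beside 25.5% of all symbols. Of those found, 10 were in both assemblies and 7 had an identical full chain in both, against 76.5% and 20.1% of all named genes. The 7 were Bglap2, Alpl, Col1a1, Ibsp, Spp1, Dmp1 and Sost. Bglap and Mepe were not found by name, although Bglap2, of the osteocalcin genes, was. Osteoclast markers numbered 3 of 8 and adipocyte markers 3 of 5, and all of those found had an identical full chain in both assemblies. Skeletal muscle markers were present as 5 of 9, of which 4 had one, and marrow myeloid markers as 5 of 7, of which 3 had one. Chondrocyte markers numbered 3 of 7, endothelial markers 3 of 5 and erythroid markers 2 of 6, and 0 of these had one. None of the 5 liver markers was found, but erythroid and muscle markers such as Hbb and Myh4 were also not found by name. A marker that was not found was thus not shown to be absent from the tissue. All markers found of these other cell types were in both assemblies, except 1 chondrocyte marker. RNA of muscle, marrow, fat and vessels was thus represented in the femur annotation beside that of bone cells, and its part in the models of the signalling genes was not tested.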

How the data were processed

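RNA-seq of rat femur had been processed by the authors. The submitters' processing notes name FastQC, HISAT2, StringTie, featureCounts and the build rn4, without versions of the tools, but the accessions of the annotation's sequences look like those of another rat assembly and its title says SD, so the build is uncertain. The deposited files hold positions and attributes of transcript models and of new genes for the whole series. None of the values in these processed files belongs to a sample, and the raw reads of the samples were not used here, so the planned comparison of OVX with SHAM was not run and depth is unknown. The form of the attributes is that of gffcompare. Transcripts were joined by gene name. The assembly of a transcript was read from its number, because numbering on each sequence runs through both strands once and then again (19314 and 19181 transcripts of 1 assembly, 4896 of both). For transcripts of both assemblies the ends come from 1 model. Symbols came from RefSeq GRCr8, without its coordinates except for the promoters.

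The members and lists were chosen with earlier results of these data known. Described in detail were, in each role, the 2 members with the most transcripts (ties by length, then name). Members with an identical full chain in both assemblies were named, and so were Bmp2, Bmp7, Tgfb1, Ctnnb1, Lrp5, Lrp6, Dkk1, Sfrp1, Sfrp4, Smad4, Nog and Fst. Scripts were checked on a simulated annotation, and no test was run. Python 3.11.15, numpy 2.4.6, scipy 1.17.1 and matplotlib 3.10.9 were used.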

Additional observations from a re-analysis of the deposited data

Results flagged for a closer look

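Outside the transcripts that carry a member's name, 15 further models lay at 10 of these genes, all without a gene name of their own. They are given because they were not used for the counts of the members. There are no control samples in this annotation to set them against. By position, 11 lay inside an intron of the reference gene, 5 on its strand and 6 on the other, 2 lay antisense over an exon, of Lef1 and Tgfbr2, and 2 followed Acvr1b as possible run-on. Tgfbr2 had the most, 4. All were short, from 212 to 506 bp, and 8 had a single exon. None was in both assemblies, with 9 in the first and 6 in the second, and none was on the list of new genes. Whether they are separate transcripts or pieces of unspliced RNA was not tested. How often such models lie at other named genes was not counted.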

How the results depend on the processing

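The number of members was 48 with name endings kept, 55 with older symbols added and 52 with transcripts of 2 or more exons only, all within 1.5 times of 54. The share of members in both assemblies, 70.4%, fell to 37.0% without contained fragments and to 20.4% with an identical transcript required, by the construction of these filters; it was 68.5% with 2 or more exons and 70.4% by locus. The share with a full chain, 33.3%, was 29.6% with 2 or more exons and 33.3% by locus. The median number of transcripts, 2, was 2 with distinct intron chains. Without contained fragments it was 2 over the 34 members that kept a transcript and 1 over all 54, the latter chosen after seeing the data, since 20 members had contained fragments only. The median longest transcript rose from 1448 to 2396 bp when only the 18 members with a full chain entered. The share with a model of the class for a new junction fell from 37.0% to 1.85% when only transcripts in both assemblies counted. Counted by transcripts and not by genes, 1 of the 42 of this class was in both assemblies for the members, and 569 of the 9873 over all named genes. The matching share of genes over all named genes is not given here. In an alternative chosen after seeing the data, the share of named genes in both assemblies was 81.8% over names that equal a current symbol, against 76.5% over all names.

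No paired analysis was possible because the annotation holds no values per sample and the labels give 1 sample per group. Since depth is unknown, limits apply to what is said of a gene without a transcript, of a missing full chain and of a model in 1 assembly. Names that are placeholders limit every count of genes found. The coding length that a model must reach was not set beside its exon length, because no protein table was used here. Lists of 3 to 11 genes per role are small, and their medians and shares describe these genes alone.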

Other observations

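Some further genes of the pathway lists had values of interest and are named because those values had been seen, without a claim on their groups. Fbn1, which encodes the microfibril protein fibrillin-1 that latent TGF-beta complexes attach to, had 7 transcripts, the longest of 40 exons and 5603 bp, and 61 of its 66 junctions were in both assemblies. Thbs1, whose product thrombospondin-1 can activate latent TGF-beta, had 4 transcripts, all of the class for a new junction, and all 19 of its junctions were in both. Integrin chains differed, with 22 of 27 junctions in both for Itgav and 3 of 11 for Itgb6. The Wnt corepressor Tle3 had 18 of 20 in both. Bambi, a decoy receptor, had 1 full chain of 3 exons and 5907 bp in the second assembly only. Secreted antagonists differed among themselves. Wif1, Frzb and Chrd had 2 contained fragments each and no junction in both assemblies, whereas Chrdl1 had 5 of 9 in both, and Sost and Nbl1 had an identical full chain in both.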
